A study of Gallus gallus with 12 samples.

Results

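The DLX genes of the embryonic chicken upper jaw were described over 12 arrays, with DLX1 and DLX2 taken as the proximal pharyngeal arch genes and DLX3, DLX5 and DLX6 as the distal ones. Members were all probe sets to which the platform annotation gives 1 of these symbols, which made 8 of the 38535 probe sets in the deposited table, for 4 of 13008 named genes. DLX1 had 3 probe sets, DLX5 and DLX6 had 2 each and DLX3 had 1. DLX2 is named by none of the annotated probe sets and was not analysed here. A probe set was tested if its intensity lay above the median of its own array on at least 3 of the 12 arrays, and 4 of the 8 members met this: 2 for DLX1, 1 for DLX5 and 1 for DLX6.

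DLX genes encode homeodomain transcription factors and lie in the vertebrate genome as adjacent pairs. In the mouse pharyngeal arches, DLX1 and DLX2 are used along the whole arch, including its proximal part that forms the upper jaw, while DLX5 and DLX6 are used in the distal part that forms the lower jaw. There, endothelin-1 signalling through its receptor EDNRA turns on DLX5 and DLX6, which in turn drive HAND2, and mice without DLX5 and DLX6 form upper-jaw structures in place of the lower jaw.

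A pair of beads was placed together in the side of the head of each chicken embryo, between the eye and the mandibular arch, at Hamburger-Hamilton stage 15 (25 somites), and the maxillary prominences were collected at stage 18 after 16 h. The maxillary prominence is the bud of tissue that forms the upper jaw, and each array held RNA of the mesenchyme and epithelium of 12 to 15 pooled pieces. The 4 groups of 3 pools each were Noggin+RA (a bead soaked in 1 mg/ml Noggin and one in 1 mg/ml all-trans retinoic acid), Noggin+DMSO (the Noggin bead with a bead of dimethyl sulfoxide, the solvent of retinoic acid), Tris+RA (the retinoic acid bead with a bead of Tris, the buffer of Noggin) and Tris+DMSO (both control beads). Noggin is a secreted antagonist that binds BMP ligands, and retinoic acid is a signalling form of vitamin A. All embryos carried beads, so no group shows the untouched prominence, and no strain is given in the labels.

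The deposited values were intensities on a linear scale, brought by the authors to the same trimmed mean on each array, and array medians ran between 33.9 and 47.4. A background level was set on each array as the 95th percentile of the 689 probe sets for genes of other organisms, and it lay between 31.1 and 49.0. The beads could be read in known target genes in some comparisons: ID1, a direct BMP target, averaged 545 ± 32.5 in Noggin+DMSO pools and 1933 ± 202 in Tris+DMSO pools (SD, n = 3 each), and CYP26A1, which breaks down retinoic acid, was 9.75-fold higher in the pools with retinoic acid (average RA effect, adjusted p = 0.0053). All 4 listed BMP targets were called lower with Noggin alone, where 2.28% of all genes were. In Noggin+RA pools 0 of these 4 were called against Tris+RA pools (median log2 difference -0.49), and 0 against Tris+DMSO pools. Of 3 listed retinoic acid targets 0 were called in Tris+RA against Tris+DMSO pools (median log2 difference 2.11), where 0% of all genes were. Arrays with Noggin beads differed from those with Tris beads in measures of the array itself: the ratio of the 5′ to the 3′ GAPDH probe sets, a sign of RNA or cRNA length, was 0.695 ± 0.0409 with Noggin beads and 0.815 ± 0.0266 with Tris beads (SD, n = 6 each, exact permutation test, two-sided p = 0.00216, the smallest it allows). Median intensity and background level also separated the Noggin and Tris arrays without overlap.

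**Figure D1:**
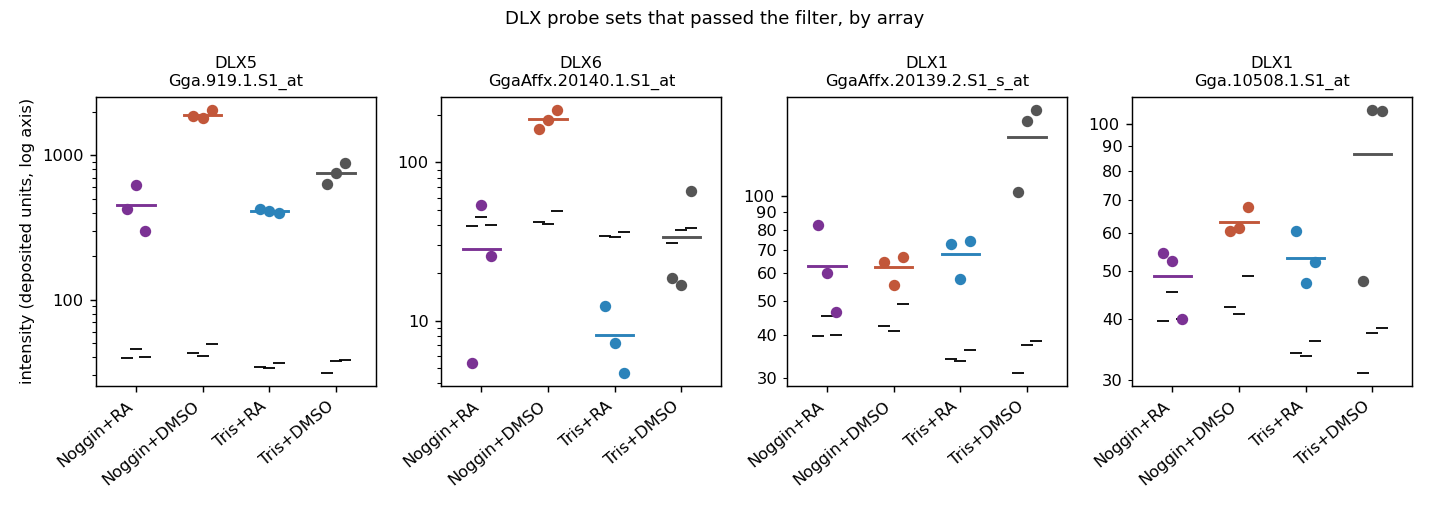
Intensity (deposited units, log axis) of the 4 tested DLX probe sets on each of the 12 arrays, with a point for each pool, a coloured line at each group mean, a short black dash at the background level of each array and the groups along the horizontal axis. For DLX5 the 3 Noggin+DMSO pools lay between 1823 and 2072, above all other pools, and for DLX1, in its brightest probe set, the 3 Tris+DMSO pools lay highest, between 103 and 177. The shares of all tested probe sets with these orders were not counted.

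DLX5 was the brightest member and was above background on all 12 arrays. Its bright probe set read 427, 626 and 298 in Noggin+RA pools, 1867, 1823 and 2072 in Noggin+DMSO pools, 427, 411 and 399.7 in Tris+RA pools, and 635, 755 and 882 in Tris+DMSO pools. Every Noggin+DMSO pool lay above every other pool, and all 6 pools with retinoic acid lay below all 6 without it. How many of all tested probe sets show the first of these orders was not counted. The group means were 450.02 ± 165, 1921 ± 133, 413 ± 13.8 and 758 ± 124 (SD, n = 3) in Noggin+RA, Noggin+DMSO, Tris+RA and Tris+DMSO pools. From the highest level down, the order was Noggin+DMSO, Tris+DMSO, Noggin+RA and Tris+RA, and the last 2 of these did not differ beyond their spread.

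DLX6, the neighbour of DLX5 on the chromosome, was above background in every pool with Noggin alone and in few others. Its tested probe set read 5.42, 53.8 and 25.6 in Noggin+RA pools, 162, 186 and 215 in Noggin+DMSO pools, 12.3, 7.25 and 4.67 in Tris+RA pools, and 18.5, 16.9 and 65.8 in Tris+DMSO pools. All 3 Noggin+DMSO pools were above background, against 1 of the 3 Noggin+RA, 0 of the 3 Tris+RA and 1 of the 3 Tris+DMSO pools. The means were 28.3 ± 24.3 in Noggin+RA, 188 ± 26.8 in Noggin+DMSO pools, 8.07 ± 3.87 in Tris+RA pools and 33.7 ± 27.8 in Tris+DMSO pools (SD, n = 3). The order below Noggin+DMSO could not be resolved, since those 3 groups lay mostly at background. This probe set passed the filter on 5 arrays, 3 of them Noggin+DMSO, so its place among the tested probe sets rests on the group where it was high. For this reason DLX6 is left out of the counts of called members, and its adjusted p is given from a fit of all chicken probe sets with no filter.

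DLX1, the proximal arch gene, was highest in the control pools. The brightest of its probe sets read 82.5, 60.4 and 46.4 in Noggin+RA pools, 64.7, 55.5 and 67.1 in Noggin+DMSO pools, 72.7, 57.8 and 74.4 in Tris+RA pools, and 103, 165 and 177 in Tris+DMSO pools. Each of the 9 pools that held Noggin or retinoic acid lay below each Tris+DMSO pool, while the 3 treated groups overlapped one another. The share of all tested probe sets with the controls above all treated pools was not counted. Means were 63.1 ± 18.2 in Noggin+RA, 62.5 ± 6.11 in Noggin+DMSO pools, 68.3 ± 9.12 in Tris+RA pools and 148 ± 40.1 in Tris+DMSO pools (SD, n = 3).

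A second tested DLX1 probe set read 54.5, 52.5 and 40.1 in Noggin+RA pools, 60.4, 61.3 and 67.8 in Noggin+DMSO pools, 60.5, 47.3 and 52.2 in Tris+RA pools, and 47.9, 107 and 106 in Tris+DMSO pools. Here 2 of the 3 control pools stood above all treated pools and the first control pool lay among them. That same pool was also the lowest control pool in the brighter DLX1 probe set. Group means were 49.0 ± 7.82 in Noggin+RA, 63.2 ± 4.02 in Noggin+DMSO pools, 53.3 ± 6.70 in Tris+RA pools and 87.0 ± 33.8 in Tris+DMSO pools (SD, n = 3).

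The other 4 probe sets did not pass the filter and were near or below background. DLX3, a distal arch gene also used in surface ectoderm, read between 1.20 and 3.29 over the 12 arrays and was above background on 0 of them. The third DLX1 probe set ranged between 2.36 and 25.3 and the second DLX6 probe set between 5.34 and 24.7, both on 0 arrays above background. The second DLX5 probe set ranged between 5.17 and 39.5 and was above background on 1 array, of the first Tris+DMSO pool. It did not follow the bright DLX5 probe set: its mean was 12.8 ± 2.85 in Noggin+DMSO pools and 31.0 ± 13.2 in Tris+DMSO pools (SD, n = 3 each).

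**Figure D2:**
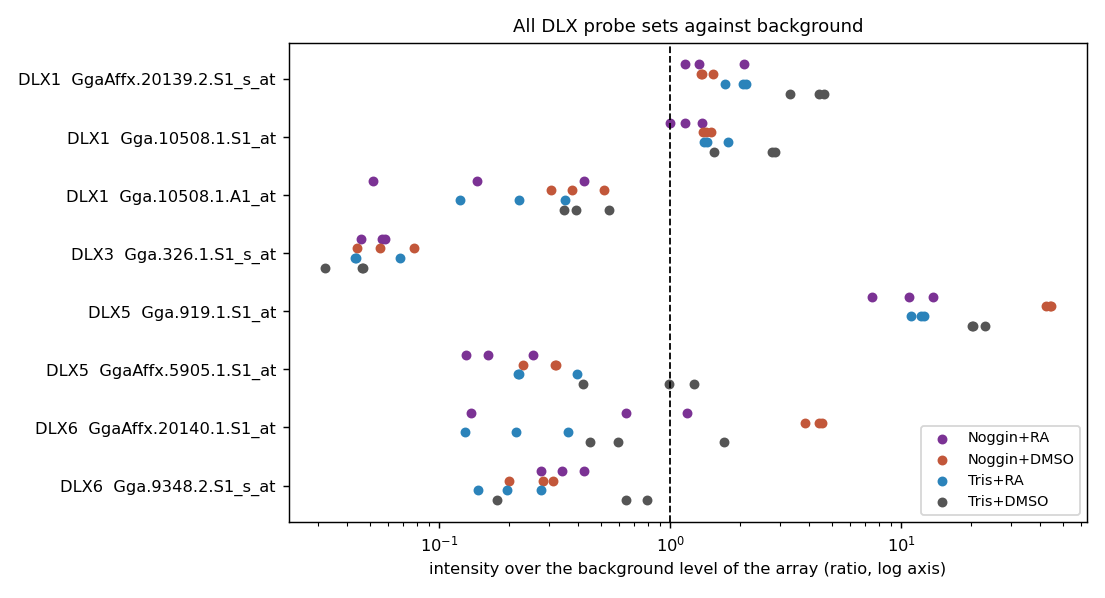
Intensity of all 8 DLX probe sets divided by the background level of the same array (ratio, log axis), with a point for each of the 12 arrays coloured by group. The bright DLX5 probe set lay above background on 12 arrays and the tested DLX6 probe set on 5, while DLX3 lay below it on all 12.

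With Noggin alone, both distal genes that could be measured rose and DLX1 fell. In Noggin+DMSO pools against Tris+DMSO pools, DLX5 was 2.52-fold higher (log2 difference 1.33, SE 0.21, 95% interval 0.87 to 1.80, limma with Benjamini-Hochberg adjusted p = 0.00724). DLX6 was at least 3.43-fold higher, taking control values below background at the background level (adjusted p = 0.0310 with no filter). In its brightest probe set, DLX1 fell 2.05-fold (log2 difference -1.04, SE 0.20, adjusted p = 0.0170). The second DLX1 probe set did not pass the threshold, with a log2 difference of -0.32 (95% interval -0.79 to 0.16, adjusted p = 0.385). Among the members tested on their own level, DLX5 was called higher and 1 of the 2 DLX1 probe sets lower, where 2.97% of all 21354 tested probe sets were called higher and 1.99% lower. For DLX5 and the brighter DLX1 probe set the values of the groups did not overlap, which held for 29.8% of all tested probe sets.

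A fit that took the GAPDH ratio as a covariate kept the directions but ended all 3 calls: DLX5 then had a log2 difference of 0.88 (SE 0.51, adjusted p = 0.756), DLX6 of 1.71 (SE 1.00, adjusted p = 0.760) and DLX1 of -0.95 (SE 0.50, adjusted p = 0.739), and it called 0 of all 21354 probe sets in this comparison. The ratio was at most 0.736 on Noggin arrays and at least 0.784 on Tris arrays. This fit therefore cannot tell the Noggin bead from the array measure, and no conclusion is drawn from the lost calls. With the filter (adjusted p = 0.0152) the DLX6 call was also lost without the third Noggin+DMSO pool (adjusted p = 0.0641), the first Tris+DMSO pool (0.0542) or the second (0.0502), and with a pseudocount of 1 (0.0597). The DLX1 call was lost without the second (0.0554) or the third (0.0575) Noggin+DMSO pool or the second Tris+DMSO pool (0.0536), and without the first Tris+DMSO pool the second DLX1 probe set was called lower (adjusted p = 0.0378). The DLX5 call held on leaving out each pool in turn, but not when both DLX5 probe sets were averaged (log2 difference 0.33, adjusted p = 0.220 over 10153 genes, against 0.00507 with the bright probe set over the same genes). That average takes in the second DLX5 probe set, which was above background on 1 of the 12 arrays.

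Levels of other cell types were followed through marker lists, and their part in the DLX differences was not tested. A forebrain list was included because DLX1, DLX2, DLX5 and DLX6 also mark interneurons there. It held 7 genes, of which 5 were on the array. The summed intensity of these 5 was 239 to 319 in Noggin+RA pools, 353 to 400.1 in Noggin+DMSO pools, 192 to 274 in Tris+RA pools and 180.4 to 268 in Tris+DMSO pools, so it was highest where DLX5 and DLX6 were highest. These sums include background, whose level averaged 42.9 on Noggin arrays and 35.1 on Tris arrays. None of the 4 tested genes of the list passed the test in Noggin+DMSO against Tris+DMSO pools (0 of 4), and NKX2-1, a ventral forebrain factor, was above background on 2 of 12 arrays. The largest difference of the list in that comparison was that of SIX3, an eye and forebrain factor, which averaged 144 ± 14.2 in Noggin+DMSO pools and 71.5 ± 39.7 in Tris+DMSO pools (SD, n = 3 each, log2 difference 0.98, adjusted p = 0.0993). In the average Noggin effect 1 of the 4 was called higher, where 6.96% of all genes were.

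The mandibular arch is the neighbouring prominence where DLX5 and DLX6 are normally high. Its list held 3 markers, which lay mostly at background with 0 tested: HAND1 and HAND2 were above it on 0 of 12 arrays and GSC on 2. PITX1 and NKX3-2, genes of the lower jaw and jaw joint, were not on this list. Both were brighter and are described below with the distal arch genes. The 8 surface epithelium genes on the array summed to 4447 to 4547 in Noggin+DMSO pools and 3698 to 4191 in Tris+DMSO pools, with 0 of 8 called, where 3.42% of all 10153 genes tested were called higher and 2.28% lower. All 11 neural crest mesenchyme genes were on the array and summed to 4933 to 5139.6 in Noggin+DMSO and 5516 to 6597 in Tris+DMSO pools, with 2 called lower, PRRX1 and PRRX2. The 9 red blood cell genes measured summed to 22509 to 27170.3 in Noggin+DMSO and 11236 to 22062 in Tris+DMSO pools, with 2 of 8 tested called higher. The 6 olfactory and otic placode genes on the array, of 7 listed, summed to 2149 to 2256 in Noggin+RA, 1394 to 1787 in Noggin+DMSO, 2234 to 2817 in Tris+RA and 1804 to 2096 in Tris+DMSO pools. The sum was thus lowest where DLX5 was highest, while OTOL1 was at background on all 12 arrays. Of the 4 tested, 1 was called in Noggin+DMSO against Tris+DMSO pools, DACH1, an eye and placode factor. It was 1.78-fold lower there (adjusted p = 0.00927) and 2.26-fold higher in Noggin+RA than in Noggin+DMSO pools (adjusted p = 0.00487). The 8 neuron and cranial ganglion genes summed to 1645 to 3415 in Noggin+DMSO and 1488 to 5818 in Tris+DMSO pools, the 10 skeletal muscle genes to 887 to 1240.02 and 707 to 1037, and the 10 endothelium genes to 1948 to 2272 and 2145 to 2304, with none called between these groups (0 of 8, 0 of 8 and 0 of 10 tested). In pooled tissue of this kind, fewer cells of a type and less RNA per cell cannot be told apart.

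With retinoic acid alone, no DLX probe set passed the test, and 0 of the 21354 tested probe sets did in this comparison (0%), although 1368 had an unadjusted p below 0.05 in limma. DLX5 had a log2 difference of -0.84 in Tris+RA against Tris+DMSO pools (95% interval -1.30 to -0.38, adjusted p = 0.353). For DLX6 both groups lay mostly at background, and no difference is given. DLX1 had -0.94 in its brightest probe set (95% interval -1.38 to -0.50, adjusted p = 0.244) and -0.51 in the second (95% interval -0.99 to -0.04, adjusted p = 0.738). All 3 Tris+RA values lay below all 3 Tris+DMSO values for DLX5 and the brighter DLX1 probe set, an arrangement found for 5.44% of all tested probe sets.

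With both beads, DLX5 and DLX1 both had lower values than with the control beads, and of these only the brighter DLX1 probe set passed the threshold. Against Tris+DMSO pools, Noggin+RA pools had a DLX5 log2 difference of -0.78 (95% interval -1.24 to -0.32, adjusted p = 0.124). DLX6 lay mostly at background in both groups, and no difference is given. The brighter DLX1 probe set was 2.07-fold lower (log2 difference -1.05, SE 0.20, adjusted p = 0.0402), 1 called member where 0.3% of all tested probe sets were called lower. The second DLX1 probe set had a log2 difference of -0.61 (adjusted p = 0.221). The DLX1 call was lost under 14 of 23 alternatives, with adjusted p up to 0.534 with the GAPDH covariate, and among pools it was lost without the second or the third Noggin+RA pool (0.0866 and 0.168), any Noggin+DMSO pool (0.0570 to 0.0625), the first or the third Tris+RA pool (0.0507 and 0.0591) or the second or the third Tris+DMSO pool (0.123 and 0.102). Without the second Noggin+RA pool, where DLX5 read 626, DLX5 was called lower (adjusted p = 0.0341), and without the first Tris+DMSO pool the second DLX1 probe set was (adjusted p = 0.0228). With the probe sets of each gene averaged, dim ones included, DLX5 (log2 difference -0.87, adjusted p = 0.0240) and DLX1 (-0.68, adjusted p = 0.0454) were both called lower. These p-values were adjusted over 10153 genes rather than over all probe sets. With the brightest probe set of each gene, adjusted over the same genes, DLX5 had an adjusted p of 0.0891 and DLX1 of 0.0265.

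The retinoic acid bead was then compared in the presence of Noggin, where DLX5 fell. In Noggin+RA pools against Noggin+DMSO pools, DLX5 was 4.33-fold lower (log2 difference -2.11, SE 0.21, 95% interval -2.58 to -1.65, adjusted p = 0.00331). DLX6 was at least 3.37-fold lower, but it did not pass the test with no filter (adjusted p = 0.0771), and it passed with the filter (adjusted p = 0.0358). By log2 difference, DLX5 ranked 3 from the bottom of the 21354 tested probe sets. DLX1 did not pass, with differences of -0.01 (95% interval -0.45 to 0.43, adjusted p = 0.995) and -0.29 (95% interval -0.76 to 0.18, adjusted p = 0.742). Leaving DLX6 aside, 1 member was called lower, where 0.215% of all tested probe sets were.

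The DLX5 difference between Noggin+RA and Noggin+DMSO pools was -1.96 with the GAPDH covariate (adjusted p = 0.0643), the only alternative that ended its call. That fit called 1 of all tested probe sets in this comparison, against 95 in the main fit. The GAPDH ratio was 0.703 to 0.736 on Noggin+RA arrays and 0.619 to 0.699 on Noggin+DMSO arrays. These 2 groups thus did not overlap in the ratio, and no conclusion is drawn from the lost call. The DLX6 call with the filter was lost under 11 of 22 alternatives, among them leaving out the first or the third Noggin+RA pool (0.106 and 0.0944), any Noggin+DMSO pool (0.083, 0.125 and 0.141) or the third Tris+RA pool (0.0564), and the GAPDH covariate (0.266). In the same 2 groups ID1 was 2.40-fold higher (log2 difference 1.26, SE 0.15, adjusted p = 0.0053), averaging 1352 ± 287 in Noggin+RA and 545 ± 32.5 in Noggin+DMSO pools (SD, n = 3 each). This BMP target thus differed between the groups in which DLX5 differed, and its part in their difference was not tested.

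When retinoic acid was present, no DLX probe set passed the test for the Noggin bead. Noggin+RA pools differed from Tris+RA pools by 0.06 for DLX5 on the log2 scale (95% interval -0.40 to 0.52, adjusted p = 0.931). DLX6 lay mostly at background in both groups, and no difference is given. For DLX1 the differences were -0.11 (95% interval -0.55 to 0.33, adjusted p = 0.849) and -0.10 (95% interval -0.57 to 0.38, adjusted p = 0.883). The count of members called was 0 in limma, with 0 at an unadjusted p below 0.05, where 0.215% of all tested probe sets were called. Of the 4 listed BMP targets 0 were called in this comparison either, so little can be read from the missing DLX calls.

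**Figure D3:**
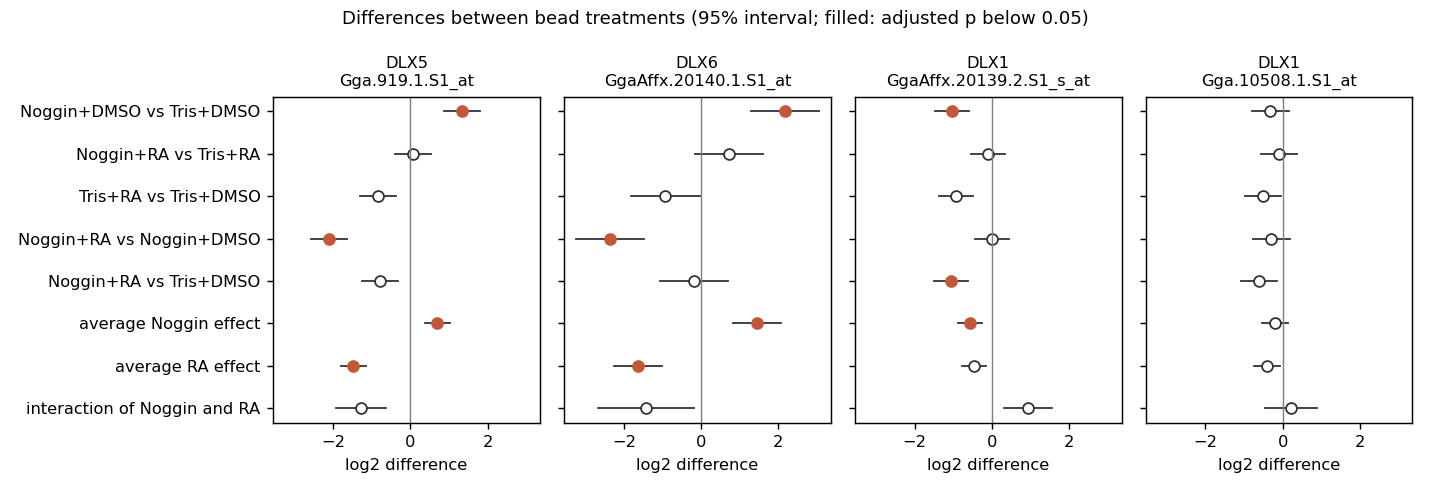
Log2 differences of the 4 tested DLX probe sets in each comparison, with 95% intervals from limma and filled points where the adjusted p was below 0.05. The fills use the adjusted p with the filter. DLX6 is thus filled in Noggin+RA against Noggin+DMSO pools and in the average RA effect, where it did not pass with no filter. DLX5 stood at 1.33 in Noggin+DMSO against Tris+DMSO pools, at 0.06 in Noggin+RA against Tris+RA pools and at -2.11 in Noggin+RA against Noggin+DMSO pools. DLX6 values between groups other than Noggin+DMSO are set by readings at background.

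Whether the Noggin difference depended on retinoic acid was tested directly as an interaction. For DLX5 the Noggin difference was smaller by 1.27 on the log2 scale with retinoic acid than without it (interaction -1.27, 95% interval -1.93 to -0.62), with an unadjusted p of 0.0012 and an adjusted p of 0.473 in limma. For DLX6 no interaction is given, since 3 of the 4 groups lay mostly at background. DLX1 had interactions of the other sign, at 0.93 for the brighter probe set (unadjusted p = 0.0071, adjusted p = 0.686) and 0.22 for the second (unadjusted p = 0.483, adjusted p = 0.989). No member passed the threshold, and 0% of all tested probe sets did, against 1274 with an unadjusted p below 0.05. The presence of a call with Noggin alone and its absence with retinoic acid therefore stand without a passing test of their difference.

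Averaged over the other bead, retinoic acid gave lower DLX5. Pools with retinoic acid were 2.78-fold lower in DLX5 than pools without it (average RA effect, log2 difference -1.48, SE 0.15, adjusted p = 0.00263), and all 6 lay below all 6, as did 0.267% of all tested probe sets. The DLX5 call held under all 22 alternatives, with the GAPDH covariate at -1.43 (adjusted p = 0.0117). DLX6 was above background in 1 of the 6 pools with retinoic acid, so no size is given. It did not pass with no filter (adjusted p = 0.0574), and with the filter (adjusted p = 0.0262) its call was lost under 9 of 21 alternatives, among them leaving out the third Noggin+RA pool (0.0559), any Noggin+DMSO pool (0.0524 to 0.0672) or the second or the third Tris+RA pool (0.064 and 0.0715). Neither DLX1 probe set passed (-0.47, adjusted p = 0.222, and -0.40, adjusted p = 0.390), so leaving DLX6 aside 1 member was called lower, against 0.356% of all tested probe sets.

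The average Noggin effect was positive for DLX5 and DLX6 and negative for DLX1. DLX5 had a log2 difference of 0.70 (SE 0.15, adjusted p = 0.0179) and DLX1 of -0.57 in its brighter probe set (SE 0.14, adjusted p = 0.0283). The second DLX1 probe set had -0.21 (adjusted p = 0.380). Without and with retinoic acid the Noggin difference was 1.33 and 0.06 for DLX5, and -1.04 and -0.11 for the brighter DLX1 probe set. The averages lie between these values and describe neither state, while the interaction did not pass the threshold. DLX6 passed with no filter (adjusted p = 0.0270), with no size given since both Tris groups lay mostly at background. Leaving DLX6 aside, 1 call upward and 1 downward compare with 6.77% and 4.47% of all tested probe sets. With the GAPDH covariate none of the 3 was called (adjusted p 0.755 to 0.851), and the DLX1 call was also lost without the second or the third Noggin+RA pool (0.0512 and 0.0641), the second or the third Noggin+DMSO pool (0.0549 and 0.0526), the third Tris+RA pool (0.0612) or the second Tris+DMSO pool (0.0529). Without the first Tris+DMSO pool the second DLX1 probe set was called lower in this effect (0.0373) and in the average RA effect (0.0255).

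The balance of distal over proximal DLX was described as the log2 deviation of DLX5 from its Tris+DMSO mean minus that of DLX1 (brighter probe set) on the same array. This difference was 0.27 ± 0.48 in the Noggin+RA pools, 2.37 ± 0.07 in the Noggin+DMSO pools, 0.10 ± 0.17 in the Tris+RA pools and 0 ± 0.19 in the Tris+DMSO pools (SD, n = 3). Noggin+DMSO was the only group whose pools all lay outside the range of the Tris+DMSO pools, and its 3 values lay between 2.29 and 2.43. The 2 probe sets were already called in opposite directions between Noggin+DMSO and Tris+DMSO pools, so this separation follows from those calls. How many other pairs of probe sets separate in this way was not counted. With the second DLX1 probe set the means were -0.17 ± 0.39, 1.65 ± 0.03, -0.33 ± 0.11 and 0 ± 0.36 in the same order of groups. In Tris+RA pools the balance was near that of the controls while both genes had lower values than in the controls, neither passing the test.

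**Figure D4:**
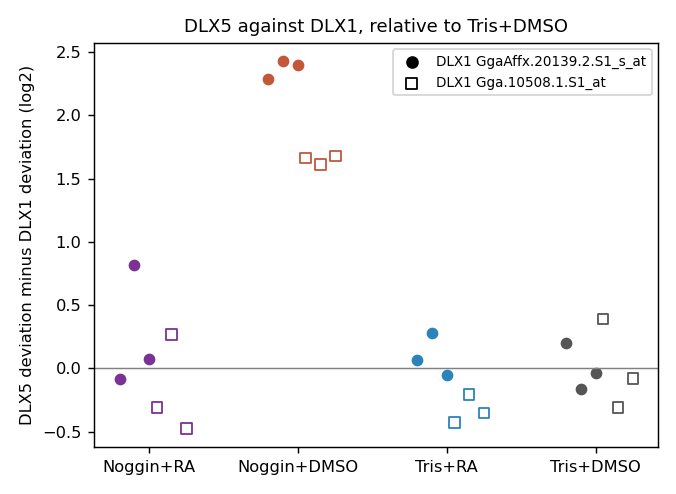
DLX5 deviation minus DLX1 deviation on each array (log2, relative to the Tris+DMSO mean of each gene), with the groups along the horizontal axis. Each pool has a filled circle for the brighter DLX1 probe set and an open square for the second. In the circles the 3 Noggin+DMSO pools lay between 2.29 and 2.43 and the 9 other pools between -0.16 and 0.82. In the squares the Noggin+DMSO pools lay between 1.61 and 1.68 and the other pools between -0.48 and 0.39.

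Within the Noggin+DMSO group, the one in which DLX6 was above background throughout, DLX5 and DLX6 were both highest in the third pool. Both tested DLX1 probe sets were highest in that pool of the group too. Its array had the highest median intensity (47.4), the highest background level (49.0) and the lowest GAPDH ratio (0.619) of the 12. The 2 DLX1 probe sets shared their highest pool in 2 groups and their lowest in 3. Pools of a group share no order, and the arrays also share their scaling, so this is a description of 12 arrays.

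In the RefSeq gene table for chicken (assembly GRCg7b), DLX5 and DLX6 lie next to each other, as do DLX1 and DLX2, and DLX3 and DLX4, with no protein-coding gene between the members of a pair. The 2 protein-coding genes on each side of each pair were taken as neighbours, and 11 of these 12 were on the array and tested. Between Noggin+DMSO and Tris+DMSO pools 0 of 11 neighbours passed the test in limma, against 3.42% of all genes called higher and 2.28% lower. SHFM1, a proteasome and DNA repair factor on one side of DLX5 and DLX6, had a log2 difference of -0.25 (adjusted p = 0.297), and SDHAF3, an assembly factor of succinate dehydrogenase on the other side, had 0.08 (adjusted p = 0.724). Beside DLX1 and DLX2, METAP1D, a mitochondrial methionine aminopeptidase, had -0.31 (adjusted p = 0.414), and ITGA6, a laminin-binding integrin subunit, had 0.15 (adjusted p = 0.482). None of the 11 was called in the other 4 pairwise comparisons, while ITGA6 was called in the average Noggin effect (log2 difference 0.30, adjusted p = 0.0474).

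Some other genes of the distal arch programme passed the test with Noggin alone, and they did not all move the way of DLX5 and DLX6. Of 22 listed distal arch genes, 18 were on the array and 13 were tested. In Noggin+DMSO against Tris+DMSO pools 2 were called higher and 1 lower, with a median log2 difference of -0.10 against 0.04 over all 10153 genes tested, of which 3.42% were called higher and 2.28% lower. The 2 that rose were NKX3-2, a homeobox gene of the jaw joint, which was 3.20-fold higher (267 ± 50.05 in Noggin+DMSO and 73.5 ± 23.7 in Tris+DMSO pools, adjusted p = 0.0150), and the ligand BMP7, which was 2.22-fold higher (602 ± 126 in Noggin+DMSO and 261 ± 44.6 in Tris+DMSO pools, adjusted p = 0.0108; SD, n = 3 each). The NKX3-2 call was lost without the first Tris+DMSO pool (0.0526). MSX1, a BMP-responsive homeobox gene, was 2.02-fold lower (153 ± 25.8 in Noggin+DMSO and 323 ± 38.1 in Tris+DMSO pools, adjusted p = 0.00485).

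Upstream of DLX5 and DLX6, the endothelin genes did not pass the test with Noggin alone. The ligand EDN1 averaged 53.4 in the Noggin+RA pools, 52.9 in the Noggin+DMSO pools, 39.0 in the Tris+RA pools and 47.2 in the Tris+DMSO pools (Noggin+DMSO against Tris+DMSO, adjusted p = 0.709). These means lay near the background levels of the arrays, 31.1 to 49.0, so little can be read from the missing call. The EDN1 receptor EDNRA averaged 826, 762, 789 and 687 in the same order of groups (adjusted p = 0.496). Downstream, HAND2 averaged 15.3, 11.2, 11.4 and 9.57 in that order and was at background on all 12 arrays.

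With retinoic acid added to Noggin, 1 of 13 distal arch genes was called, where 0.335% of all genes were called higher and 0.236% lower: PITX1, a hindlimb and lower jaw homeobox gene, rose 2.19-fold in Noggin+RA against Noggin+DMSO pools (342 ± 18.1 in Noggin+RA and 149.8 ± 37.0 in Noggin+DMSO pools, SD, n = 3 each, adjusted p = 0.0252), opposite in sign to DLX5. Of its 2 tested probe sets 1 was called, and the call was lost under 8 of 23 alternatives, among them leaving out any Noggin+RA pool (0.0601 to 0.106) or the second or the third Noggin+DMSO pool (0.104 and 0.110). BARX1, a homeobox gene of arch mesenchyme, had a log2 difference of -1.32 in the same comparison (adjusted p = 0.294), and NKX3-2 had -0.90. In Noggin+RA against Tris+RA pools NKX3-2 was at least 2.88-fold higher (adjusted p = 0.0496), a call lost under 17 of 22 alternatives, among them leaving out any pool other than the first Noggin+RA and the first Tris+DMSO pool (0.0678 to 0.190). In Noggin+RA against Tris+DMSO pools 0 of the 13 distal genes were called, and in Tris+RA against Tris+DMSO pools 0 were.

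The list of proximal arch and maxillary genes held 17 genes, with 11 on the array and 9 tested. In Noggin+DMSO against Tris+DMSO pools 3 were called lower, as DLX1 was, and 1 higher, with a median log2 difference of -0.38 against 0.04 over all genes, of which 3.42% were called higher and 2.28% lower. PRRX1 and PRRX2, homeobox genes of facial mesenchyme, were 3.22-fold and 2.32-fold lower (adjusted p = 0.00218 and 0.00443), and LHX8, a LIM homeobox gene of the upper jaw, was 2.70-fold lower (adjusted p = 0.0434). PRRX1 and PRRX2 are also the genes called lower in the neural crest mesenchyme list, so the lists share these calls. The LHX8 call was lost under 12 of 23 alternatives, among them leaving out the second Noggin+RA pool (0.0572), any Noggin+DMSO pool (0.0687 to 0.126), the third Tris+RA pool (0.0604) or the second or the third Tris+DMSO pool (0.109 and 0.0824). TBX22, a T-box gene of the palate, was 3.05-fold higher (207 ± 18.6 in Noggin+DMSO and 59.1 ± 20.4 in Tris+DMSO pools, SD, n = 3 each, adjusted p = 0.00218).

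In Noggin+RA against Tris+DMSO pools, where DLX1 was also called lower, LHX8 was 4.33-fold lower (131 ± 50.1 in Noggin+RA and 631 ± 257 in Tris+DMSO pools, SD, n = 3 each, adjusted p = 0.0238), PRRX1 was 1.99-fold lower (adjusted p = 0.0424) and TBX22 was 4.31-fold higher (adjusted p = 0.0012), where 0.630% of all genes were called higher and 0.345% lower. The PRRX1 call was lost under 16 of 23 alternatives, among them leaving out any single pool other than the second Noggin+RA and the first Tris+RA pool (0.0514 to 0.172). That of LHX8 was lost under 8 of 23, among them leaving out the second or the third Noggin+RA pool (0.055 and 0.103) or the second or the third Tris+DMSO pool (0.0833 and 0.0649). PRRX2, unlike DLX1, was 2.01-fold higher in Noggin+RA than in Noggin+DMSO pools (adjusted p = 0.0391), a call lost under 12 of 23 alternatives, among them leaving out any Noggin+RA pool (0.0698 to 0.138), the second or the third Noggin+DMSO pool (0.145 and 0.144), the third Tris+RA pool (0.063) or the second Tris+DMSO pool (0.0603). TBX22 was called higher in Noggin+RA than in Tris+RA pools as well (log2 difference 1.86, adjusted p = 0.0030). With the GAPDH covariate none of these list genes was called except TBX22 in Noggin+RA against Tris+DMSO pools (log2 difference 2.56), whose adjusted p lay just below the threshold.

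**Figure D5:**
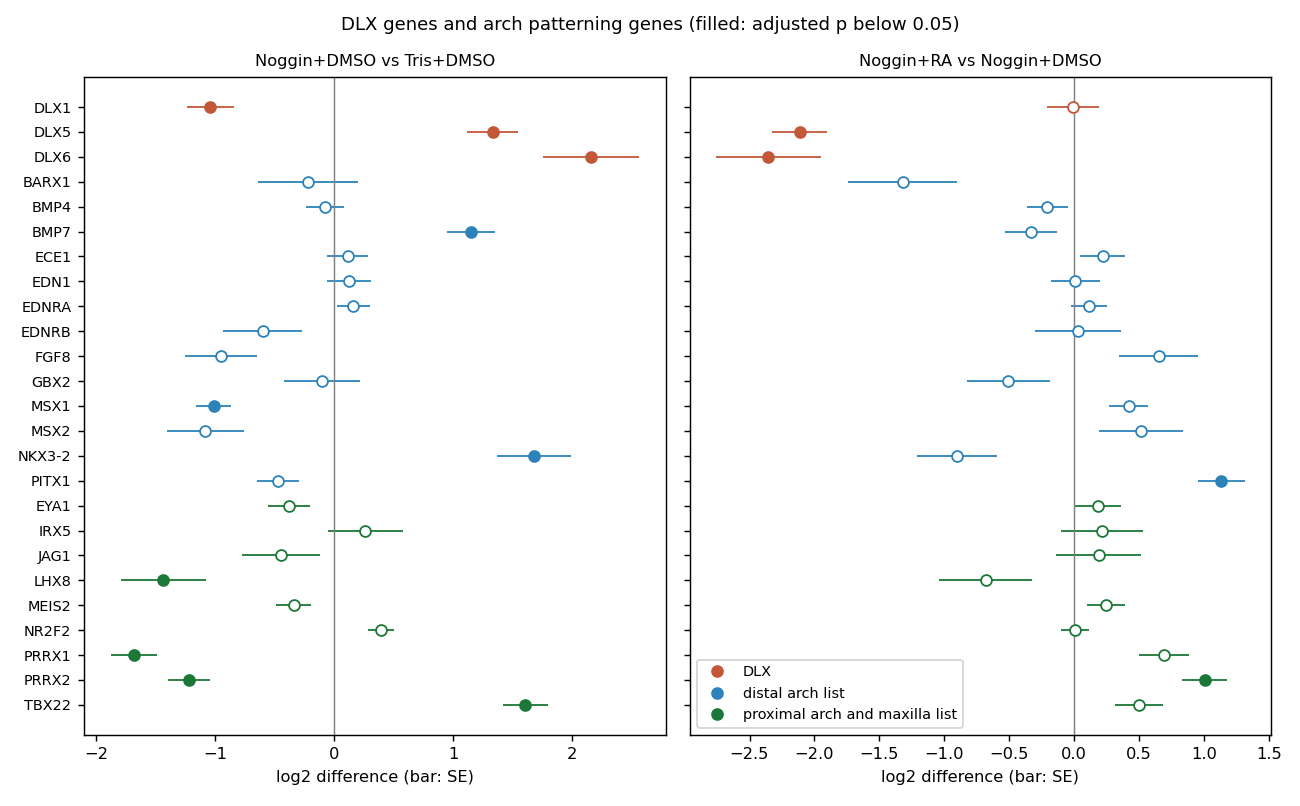
Log2 differences (bars, SE) of the DLX genes and of the tested genes of the distal arch and proximal arch lists in Noggin+DMSO against Tris+DMSO pools and in Noggin+RA against Noggin+DMSO pools, with filled points where the adjusted p was below 0.05. The fills use the adjusted p with the filter, so DLX6 is filled in both comparisons although it did not pass with no filter in the second. DLX5 stood at 1.33 in the first comparison and at -2.11 in the second, DLX6 at fitted values of 2.16 and -2.35, of which only the limits given in the text are measured, while MSX1 stood at -1.01 and 0.42.

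The genes whose pattern over the 12 arrays was most like that of each DLX gene were taken by the smallest root mean square difference in log2 deviations from the gene's own mean, among 10150 other genes. For DLX5 these were F13A1, which encodes a subunit of coagulation factor XIII (0.40), AKR1D1, a steroid reductase (0.43), and CPNE4, a copine (0.44), against a median of 0.92 over all genes. For DLX6, of whose 12 values 7 lay below background, they were ALDH1A3, an enzyme that makes retinoic acid (0.57), NKX3-2 (0.66) and F13A1 (0.66), against a median of 1.25. ALDH1A3 averaged 239.8 in Noggin+RA, 1353 in Noggin+DMSO pools, 122 in Tris+RA pools and 152 in Tris+DMSO pools. For DLX1 they were GATM, an enzyme of creatine synthesis (0.19), FAM150B, a ligand of the receptor kinase ALK (0.19), and IL17RD, an inhibitor of FGF signalling (0.23), against a median of 0.53. GATM averaged 104 in Noggin+RA, 116 in Noggin+DMSO pools, 115 in Tris+RA pools and 195 in Tris+DMSO pools. All these genes were picked for their likeness to a DLX gene on the same arrays, so a shared order of groups is no separate result.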

How the data were processed

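Total RNA of 12 pools of maxillary tissue was amplified in 2 cycles from 500.0 ng and hybridised to 1-colour Affymetrix chicken arrays, per the labels' protocols. The deposited values were intensities on a linear scale, and their trimmed mean (2% trimmed on each side) was near 150.03 on each array. The normalization software is not given in the sources used here. Probe sets were named from the platform annotation, in which 27166 of 37693 chicken probe sets had 1 symbol, 177 several and 10350 none. Values were taken as log2(intensity + 16), and a chicken probe set was kept if it exceeded its array's median at least 3 times over the 12 arrays (21354 sets). A fold is on this log2 scale and understates the change of dim probe sets. One model with 4 groups was fitted over all 12 arrays with limma 3.58.1 in R 4.3.3 (lmFit, eBayes), with Benjamini-Hochberg adjustment over all 21354 probe sets and calls at an adjusted p below 0.05. For DLX6, which passed the filter through the group where it was high, the adjusted p of the same model with no filter is given. An exact permutation test of 3 against 3 pools cannot go below 0.1. Pools are biological replicates per the labels, and within-group correlations between arrays ran between 0.971 and 0.980. The number of arrays limits the precision. For genes with several probe sets in the lists, the brightest was used. "At least" marks a fold in which values below the array's background level were raised to that level.

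Text names the DLX probe sets, list genes that passed the test or bear on a comparison, the neighbours, and the 3 genes most like each called DLX gene. The DLX genes, the gene lists and the tests were chosen with earlier results of these data known. Alternatives covered the pseudocount, filter, scaling, arrays fitted, a replicate block, the GAPDH ratio as a covariate, probe set averaging and each pool left out. The limma fit was run on simulated data with known shifts, for Noggin+DMSO against Tris+DMSO pools, and the other steps were not tested this way.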

Additional observations from a re-analysis of the deposited data

How the results depend on the processing

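No DLX difference that passed the test changed its direction under any alternative run. The counts here include DLX6 as tested with the filter, which it passed through the group where it was high, so they do not stand as results about the members. Of all 21354 tested probe sets the main fit called 1058 with Noggin alone, 173 in Noggin+RA against Tris+DMSO and 95 in Noggin+RA against Noggin+DMSO pools. It called 2400 for the average Noggin effect and 175 for the average RA effect. With Noggin alone 3 DLX probe sets were called, and 1 to 3 on leaving out each pool in turn, 1 gene with the probe sets of a gene averaged, and 0 with the GAPDH ratio as a covariate, which called 0 of all probe sets against 1058. The count was 2 with a pseudocount of 1. It was also 2 under the stricter filter, which left DLX6 and the second DLX1 probe set untested. In Noggin+RA against Tris+DMSO pools the count of 1 went to 0 with a pseudocount of 1, no filter, only the groups compared, the GAPDH covariate or the replicate block, to 2 genes with probe sets averaged, and between 0 and 2 over left-out pools. In Noggin+RA against Noggin+DMSO pools the count of 2 went to 1 with a pseudocount of 1, no filter, only the groups compared or the replicate block, and between 1 and 2 over left-out pools. It went to 0 with the GAPDH covariate, which called 1 of all probe sets against 95. Under the stricter filter the count was 1, with DLX6 not tested. For the average Noggin effect 3 became 0 with the GAPDH covariate, 1 gene with averaging and 2 to 4 over left-out pools, and was 2 under the stricter filter, with DLX6 not tested. For the average RA effect 2 became 1 with a pseudocount of 1, no filter or the GAPDH covariate, and 1 to 3 over left-out pools. It was also 1 under the stricter filter, with DLX6 not tested. With the 90th percentile as background the lower limits for DLX6 were 3.98-fold and 3.86-fold. Centring each array on its median moved the median of all probe sets in Noggin+DMSO against Tris+DMSO pools by -0.17, and DLX5 then stood at 1.16, DLX6 at 1.99 and DLX1 at -1.21. Pools share replicate numbers across groups, but 0 of 18 same-numbered pairs deviated together (correlation above 0.1) and 1 of 12 arrays was most like its own number. No pairing by number was thus seen, but this check cannot exclude that same-numbered pools were handled together. The replicate block ended the DLX6 call in Noggin+RA against Noggin+DMSO pools (adjusted p = 0.0630) and the DLX1 call in Noggin+RA against Tris+DMSO pools (0.0864). The causes of these changes were not tested. The GAPDH covariate cannot be told apart from the Noggin bead, since the ratio did not overlap between Noggin and Tris arrays. The ratio did not overlap between Noggin+RA and Noggin+DMSO arrays either. Signal over background limits DLX3, 1 of the 3 DLX1 probe sets and 1 probe set each of DLX5 and DLX6, for which no difference could be measured here.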
